A study of Homo sapiens with 6 samples.

Results

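The 10 genes described here encode interferon-induced proteins of the antiviral response: OAS1, OAS2, OAS3, OASL, MX1, MX2, BST2, RSAD2, HERC5 and HERC6. They were chosen by name. Each was measured by 1 probe set that the platform annotation gives to that gene alone, so they make up 10 of the 29183 probe sets tested and 10 of the 18417 named genes. The rule uses no measured value, but the genes were picked with earlier results of these data known.

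The study hybridised total RNA from HEK293T, a cell line from human embryonic kidney with SV40 large T antigen, to 6 Affymetrix Human Gene 1.0 ST arrays. Of these, 3 arrays came from cells given pNTAP-2×flag-VRTN, which holds the coding sequence of pig VRTN, and 3 from cells given the pNTAP-2×flag empty vector. VRTN (vertnin) binds DNA, and in pigs its gene is linked to the number of vertebrae. RNA was taken 24 hours after transfection in both groups, so both carried plasmid DNA and no array came from untransfected cells.

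Type I interferon binds its receptor on the cell surface and activates the transcription factor complex ISGF3. ISGF3 binds the interferon-stimulated response element in the promoters of these genes, whose transcripts are low in most resting cells. The OAS enzymes sense double-stranded RNA and make short chains of adenylate that activate the nuclease RNase L. The MX proteins are dynamin-like GTPases that block incoming viral particles, and BST2 (tetherin) holds budding virions at the cell surface. RSAD2 (viperin) is a radical SAM enzyme that makes a chain-terminating nucleotide. HERC5 attaches the ubiquitin-like protein ISG15 to its substrates in human cells, a task that HERC6 carries out in the mouse.

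The start regions of the members were read from RefSeq (build GRCh38.p14), as windows of 250 bases before to 50 after the annotated start, and 7 of the 10 members matched a window (OAS2, OASL and MX2 did not). These windows are shown for the genes with the highest differences between plasmids (BST2 and HERC6), for the neighbour of HERC6 on chromosome 4 (HERC5) and for 2 genes with small differences (RSAD2 and MX1). Each runs 5′ to 3′ on the strand of the gene, and capitals mark matches to the core of the interferon-stimulated response element, GAAANNGAA or its reverse complement TTCNNTTTC.
BST2, chr19:17405581-17405880, minus strand: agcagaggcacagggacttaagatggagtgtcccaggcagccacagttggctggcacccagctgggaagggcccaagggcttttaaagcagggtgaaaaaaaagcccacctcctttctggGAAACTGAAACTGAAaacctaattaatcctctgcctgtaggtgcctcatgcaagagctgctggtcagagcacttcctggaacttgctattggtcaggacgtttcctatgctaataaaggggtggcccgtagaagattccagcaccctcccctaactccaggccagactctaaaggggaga
HERC6, chr4:88378602-88378901, plus strand: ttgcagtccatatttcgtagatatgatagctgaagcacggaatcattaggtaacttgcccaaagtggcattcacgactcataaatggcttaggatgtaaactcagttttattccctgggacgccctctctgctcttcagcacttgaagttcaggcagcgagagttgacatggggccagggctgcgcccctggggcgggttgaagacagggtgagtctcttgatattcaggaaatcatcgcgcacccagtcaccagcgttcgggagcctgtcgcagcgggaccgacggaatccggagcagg
HERC5, chr4:88456869-88457168, plus strand: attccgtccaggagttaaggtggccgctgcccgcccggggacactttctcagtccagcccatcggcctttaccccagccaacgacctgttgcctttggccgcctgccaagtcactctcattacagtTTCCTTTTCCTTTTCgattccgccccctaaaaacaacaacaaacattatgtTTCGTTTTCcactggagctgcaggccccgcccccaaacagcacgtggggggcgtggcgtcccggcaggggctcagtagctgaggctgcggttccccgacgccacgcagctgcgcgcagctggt
RSAD2, chr2:6877527-6877826, plus strand: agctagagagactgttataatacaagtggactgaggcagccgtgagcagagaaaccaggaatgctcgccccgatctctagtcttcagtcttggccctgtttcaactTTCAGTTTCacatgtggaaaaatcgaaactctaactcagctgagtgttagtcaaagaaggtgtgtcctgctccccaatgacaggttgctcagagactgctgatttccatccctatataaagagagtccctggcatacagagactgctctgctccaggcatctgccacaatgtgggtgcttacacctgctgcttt
MX1, chr21:41420308-41420607, plus strand: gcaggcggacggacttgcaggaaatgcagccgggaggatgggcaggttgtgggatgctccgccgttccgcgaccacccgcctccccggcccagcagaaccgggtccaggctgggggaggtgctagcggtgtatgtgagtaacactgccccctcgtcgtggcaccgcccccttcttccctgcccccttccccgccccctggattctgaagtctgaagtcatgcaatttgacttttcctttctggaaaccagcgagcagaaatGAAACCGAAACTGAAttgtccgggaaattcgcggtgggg

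The BST2 window held 2 overlapping matches, GAAACTGAA at 130 and at 124 bases before the start. The HERC5 window held 3: TTCCTTTTC at 124 and at 118 bases before the start, which overlap, and TTCGTTTTC at 73 bases before it. RSAD2 held TTCAGTTTC at 144 bases before the start shown, and a second RSAD2 window held GAAAGCGAA at 79 bases before its own start. MX1 held GAAACCGAA and GAAACTGAA, which overlap, at 11 and 17 bases after the start shown, and another MX1 window held TTCTCTTTC at 195 bases before its own start. The OAS3 window held GAAACTGAA at 143 and GAAAACGAA at 12 bases before the start. These letters were not in the HERC6 and OAS1 windows. The pattern fixes the spacing of its parts, so related forms such as ggaaacgaaacc, which the OAS1 window holds, were not counted. In all, 5 of the 7 members with a window held the core on either strand, as did 9.86% of the 27305 genes with a window. By window, 7 of 10 held it, against 8.11% of 35116.

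A second motif, the gamma-activated sequence TTCNNNGAA, which dimers of STAT factors bind, is its own reverse complement. It matched in windows of 3 of the 7 members with a window, against 9.38% of all genes with a window. By window, 3 of 10 held it, against 7.66% of 35116. BST2 held TTCTGGGAA at 136 bases before the start, which overlaps the first response element match, and TTCCTGGAA at 58. OAS1 held TTCAGAGAA at 168 bases before the start, and another MX1 window, which starts at a different annotated start, held TTCCGTGAA at 189. A match is a string of letters, and binding was not measured here.

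The labels and arrays were checked first. The human VRTN probe set read 5.10 ± 0.11 (SD, n = 3) with the empty vector and 6.18 ± 0.10 with VRTN, a log2 difference of 1.07 (limma adjusted p = 0.0194), although the binding of pig sequence to human probes was not measured. That call was lost without moderation of the variance (adjusted p = 0.554), without any 1 replicate number in both groups, and without any single array except empty vector replicate 1 (limma adjusted p up to 0.264, with log2 differences of 1.01 to 1.13). Of 7 measured genes of the kidney progenitor and neuronal type known from HEK293 cells, 6 (PAX2, PAX8, EYA1, LHX1, SALL1 and NEFL) lay in every array above the median that the negative control probe sets gave, and NEFM did in 1 of 6. All 7 were dimmer than the 95th percentile of those control probe sets (10.53 to 11.12). A reading above their median is therefore not evidence of expression. The leukocyte markers PTPRC, CD3E and LYZ lay below that median throughout, and 1 of 6 measured (CD68) above it throughout. The same held for 3 of 8 fibroblast markers (COL1A1, COL1A2 and COL3A1) and 0 of 5 endothelial markers, and no marker of these lists passed between the plasmids. Among the controls, the 9 bacterial spikes read 10.24 ± 0.19 with the empty vector and 10.60 ± 0.10 with VRTN (SD, n = 3 each; log2 difference 0.35). In a two-sided exact permutation test that gave p = 0.1, the lowest value possible for 3 against 3. The polyA spikes read 9.78 ± 0.12 with the empty vector and 9.73 ± 0.07 with VRTN (log2 difference -0.045, exact permutation p = 0.7). The part of the bacterial spike difference in the results below was not tested.

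The comparison asked whether these transcripts differed between cells given VRTN and cells given the empty vector. BST2 and HERC6 were the members with the highest signal in the VRTN arrays relative to the empty vector arrays, by 1.33-fold and 1.29-fold, and OAS3 followed at 1.14-fold. No member passed the test across all probe sets. In limma, 0 of the 10 had an adjusted p under 0.05, where 0.0137% of all tested probe sets were called higher and 0 lower. At an unadjusted p under 0.05, 2 members were higher and 0 lower, against 2.65% of all tested probe sets higher and 2.92% lower. The VRTN arrays all lay above the empty vector arrays for 3 members and below them for 0, against 5.39% of all tested probe sets above and 5.92% below. The median log2 difference over the members was 0.056, and -0.0049 over all tested probe sets.

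**Figure D1:**
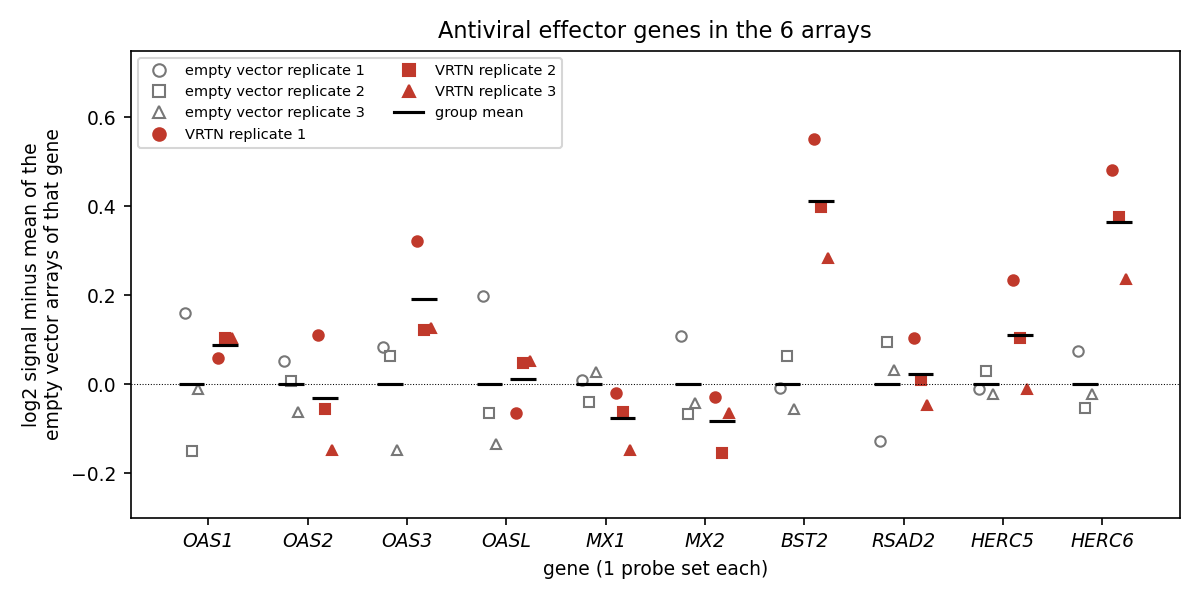
Log2 signal of each member in the 6 arrays, with the mean of that gene's empty vector arrays subtracted (vertical axis); open grey symbols are empty vector arrays, filled red symbols VRTN arrays, shapes the replicate numbers and black bars the group means. The red symbols lie above all grey ones for BST2, HERC6 and OAS3, and the groups overlap for the other 7 genes.

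BST2 read 5.004, 5.07 and 4.96 in empty vector replicates 1, 2 and 3, and 5.56, 5.41 and 5.29 in VRTN replicates 1, 2 and 3 (log2 signal). All VRTN arrays were higher than all empty vector arrays, and VRTN replicate 1 was the highest. The log2 difference was 0.41 (SE 0.086, 95% interval 0.21 to 0.61, n = 3 per group), which is 1.16-fold to 1.53-fold, with an unadjusted limma p of 0.00149 and an adjusted p of 0.563. By p, BST2 ranked 77 of 29183 probe sets, and 99.5% of probe sets had a lower difference. In all 6 arrays BST2 was dimmer than the negative control median (5.36 to 6.13), and the median of all tested probe sets was 6.43 to 6.47. BST2 is also a surface protein of plasmacytoid dendritic cells, whose markers CLEC4C and IL3RA were dimmer than it in all arrays as well. CLEC4C was higher with VRTN by 0.26 on the log2 scale, with an unadjusted limma p of 0.00512, and IL3RA by 0.0029. The log2 summed level of the 4 measured markers of that type, which the brighter TCF4 and IRF7 carry, was 8.53 to 8.60 with the empty vector and 8.55 to 8.60 with VRTN. No marker of the 4 passed the adjusted test, and their part in the BST2 difference was not tested. All cultures were of the kidney line HEK293T, so these readings are not taken as evidence of plasmacytoid dendritic cells. In RNA from a whole culture, more transcript per cell and more cells with the transcript cannot be told apart.

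HERC6 read 6.92, 6.79 and 6.83 in the empty vector replicates and 7.33, 7.22 and 7.08 in the VRTN replicates. The groups did not overlap, and VRTN replicate 1 was again the highest and VRTN replicate 3 the lowest of its group. The log2 difference was 0.37 (SE 0.084, 95% interval 0.17 to 0.56), with an unadjusted limma p of 0.00258 and an adjusted p of 0.604, which ranked 122 of 29183 by p. HERC6 lay above the negative control median in all 6 arrays.

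HERC5, the gene next to HERC6, read 7.90, 7.94 and 7.89 with the empty vector and 8.15, 8.02 and 7.90 with VRTN. VRTN replicates 1 and 2 lay above every empty vector array, and replicate 3 lay within their range. The log2 difference was 0.11 (SE 0.080, 95% interval -0.075 to 0.29; adjusted p = 0.959), and it was 0.047 without VRTN replicate 1 and 0.17 without VRTN replicate 3. Within arrays, the difference for HERC6 exceeded that for HERC5 by 0.26 on the log2 scale, and by 0.16, 0.36 and 0.25 in the same-numbered pairs. That contrast had an exact permutation p of 0.1, two-sided, and 0.25 after adjustment over the 5 pairs of neighbouring members compared. With 3 against 3, 0.1 is the smallest possible, so this test could not pass 0.05. It ignored the replicate numbers, and the contrast was added after the values were seen. On its other side, HERC6 adjoins PPM1K, a mitochondrial phosphatase gene, at a log2 difference of 0.0012 (SE 0.15).

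OAS3, the largest enzyme of its family, read 5.92, 5.90 and 5.69 with the empty vector and 6.16, 5.96 and 5.96 with VRTN. The groups did not overlap, but the lowest VRTN arrays lay close to the highest empty vector array. The log2 difference was 0.19 (SE 0.093, 95% interval -0.026 to 0.41), with an unadjusted p of 0.0763 and an adjusted p of 0.905. With the replicate number as a block its SE was 0.067 and its unadjusted p 0.0293, the adjusted p being 0.381. With the block, 3 members were higher at an unadjusted p under 0.05 and 0 lower, against 5.31% of all tested probe sets higher and 6.19% lower, and 0 passed the adjusted test, in which 0.0274% were called higher.

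The other OAS genes overlapped between the groups. OAS1 read 6.23, 5.92 and 6.06 with the empty vector and 6.13, 6.17 and 6.17 with VRTN, a log2 difference of 0.089 (95% interval -0.12 to 0.29). Its VRTN arrays lay within the range of its empty vector arrays. OAS2, between OAS3 and the Notch regulator gene DTX1 on chromosome 12, read 5.14, 5.10 and 5.03 against 5.20, 5.03 and 4.94, a difference of -0.031 (-0.23 to 0.16). OASL, which lacks the enzyme activity and enhances signalling by the RNA sensor RIG-I, read 5.75, 5.49 and 5.42 against 5.49, 5.60 and 5.61. Its highest array was empty vector replicate 1, and its difference was 0.012 (-0.22 to 0.24). Within arrays the difference for OAS3 exceeded that for OAS2 by 0.22 (exact permutation p = 0.1, adjusted 0.25) and that for OAS1 by 0.10 (exact permutation p = 0.5, adjusted 0.625). The limits given for the HERC6 contrast hold here too.

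Both MX genes had lower group means with VRTN. MX1, which restricts influenza viruses among others, read 4.57, 4.52 and 4.59 with the empty vector and 4.54, 4.49 and 4.41 with VRTN. MX2, which restricts human immunodeficiency virus, read 4.90, 4.72 and 4.75 against 4.76, 4.63 and 4.72. Both were lower with VRTN in each of the 3 same-numbered pairs, as were 19.1% of all tested probe sets, and their groups overlapped. The log2 difference was -0.076 (SE 0.068, 95% interval -0.23 to 0.080) for MX1 and -0.083 (SE 0.077, -0.26 to 0.095) for MX2. Without single arrays MX1 was at -0.10 to -0.041, the latter without VRTN replicate 3. MX2 was at -0.12 to -0.029, the latter without empty vector replicate 1, and at -0.047 without VRTN replicate 2. The adjacent genes differed from each other by 0.0065 in this difference (exact permutation p = 0.9, adjusted 0.9).

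RSAD2 read 4.17, 4.39 and 4.33 with the empty vector and 4.40, 4.30 and 4.25 with VRTN. The arrays of the groups were interleaved, and the difference was 0.0225 (SE 0.083, 95% interval -0.17 to 0.21). CMPK2, the kinase gene next to RSAD2 that supplies its nucleotide substrate, was at -0.095 (SE 0.072). Like BST2, RSAD2, MX1, MX2 and OAS2 were dimmer than the negative control median throughout, and OASL was in 5 of 6 arrays. HERC5 and HERC6 lay above it in every array, OAS1 in 5 and OAS3 in 3. That median is no detection limit, so a dim reading is not evidence of absence, and a reading above it is not evidence of expression. The 95th percentile of the negative control probe sets was 10.53 to 11.12 over the arrays, above every member. The share of all tested probe sets dimmer than the median was not computed.

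**Figure D2:**
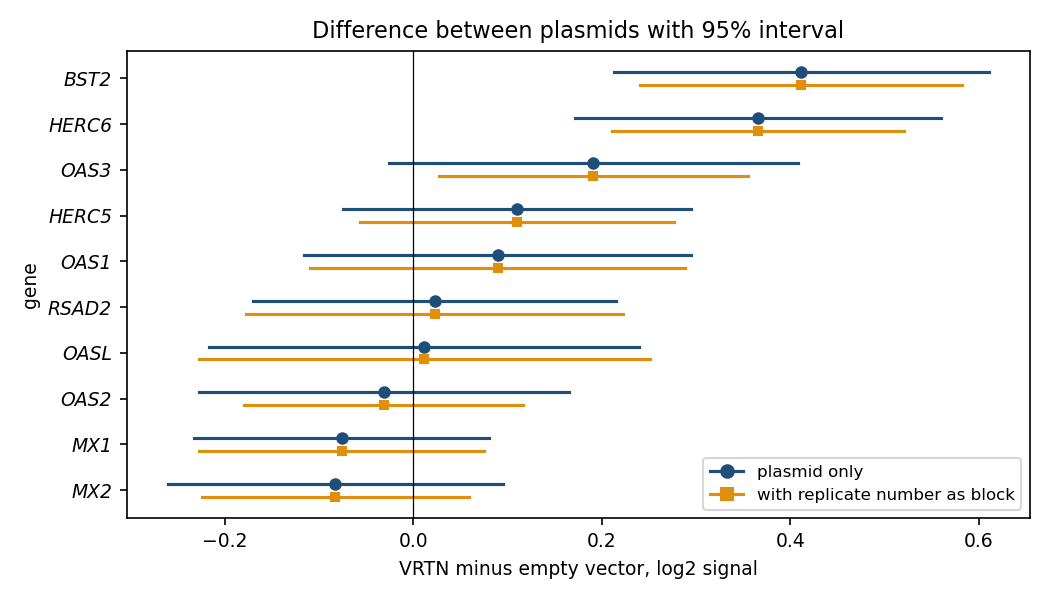
Difference between VRTN and empty vector arrays for each member on the log2 scale (horizontal axis), with its 95% interval from limma on plasmid alone (blue circles) and with the replicate number as a block (orange squares). The intervals of BST2 and HERC6 lie above 0 in both fits, that of OAS3 only with the block, and those of the other 7 genes include 0.

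For the 8 members besides BST2 and HERC6 the intervals without the block included 0. Their bounds ran from -0.26 to 0.41 on the log2 scale, so each interval lay between 0.835-fold and 1.33-fold. Changes beyond these sizes lie outside the intervals, and smaller ones were not resolved with 3 arrays per group. The SE of the members ran from 0.068 to 0.098.

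The members were also followed within the replicate numbers. Deviations of same-numbered arrays from their group means correlated at 0.535, 0.157 and 0.499 for replicates 1, 2 and 3, so weakly for replicate 2. The labels give numbers but name no block, and correlations between different numbers were not computed. In the pairs of replicates 1, 2 and 3 the difference was 0.56, 0.34 and 0.34 for BST2 and 0.41, 0.43 and 0.26 for HERC6. It was 0.24, 0.059 and 0.28 for OAS3 and 0.24, 0.075 and 0.010 for HERC5. These 4 were higher with VRTN in all 3 pairs, as were 15.8% of all tested probe sets. OAS1 (-0.10, 0.25 and 0.12) and OASL (-0.26, 0.11 and 0.19) were lower in the first pair and higher in the others. OAS2 (0.057, -0.064 and -0.087) and RSAD2 (0.23, -0.085 and -0.078) ran the other way. The median over the members was 0.14, 0.067 and 0.063 in the 3 pairs.

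**Figure D3:**
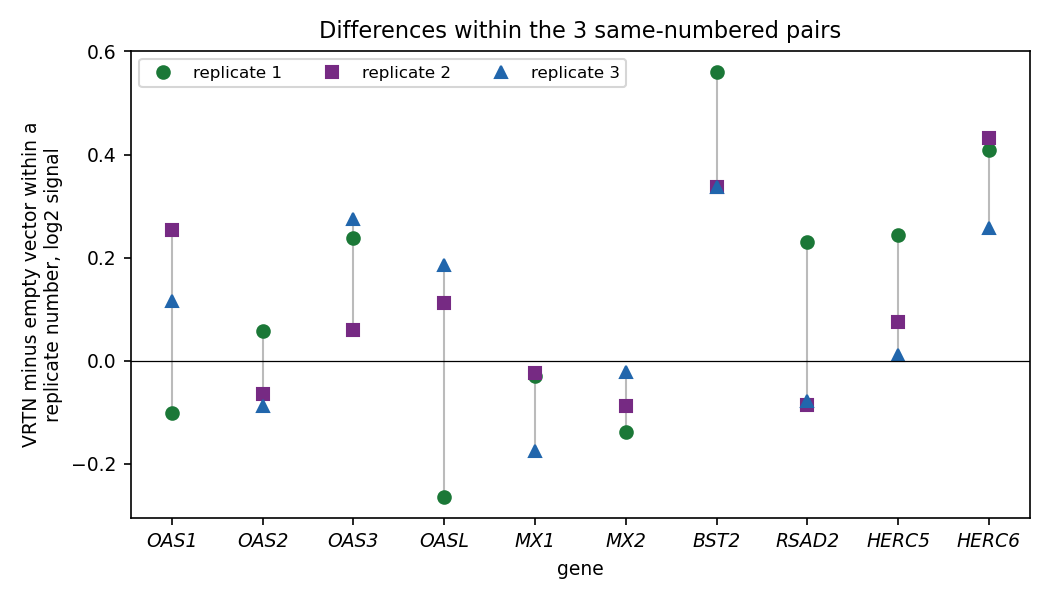
VRTN minus empty vector within each replicate number, on the log2 scale, for each member; green circles are replicate 1, purple squares replicate 2 and blue triangles replicate 3, and a grey line joins the lowest and highest. All symbols of BST2, HERC6, OAS3 and HERC5 lie above 0 and all of MX1 and MX2 below it.

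Averaged over the plasmids, 9 of the 10 members read higher in replicate 1 than in replicate 3, RSAD2 being the exception, as did 57.0% of all tested probe sets. The median of that difference was 0.12 over the members and 0.027 over all tested probe sets. The range between the means of the replicate numbers was 0.055 to 0.21 over the 10 members. Such a range is not the same measure as the difference between the plasmid means, so their sizes were not compared. The negative control median moved the other way, at 5.36 and 5.59 in the replicate 1 arrays and 6.13 and 6.06 in the replicate 3 arrays, and its part in the members' values was not tested. In the moderated F test of the replicate number, 0 of the 10 members passed (adjusted p = 0.329 to 0.877) and 0 had an unadjusted p under 0.05. Of all tested probe sets, 1.03% passed and 20.9% had an unadjusted p under 0.05.

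Among the 18407 other named genes, those whose values over the 6 arrays ran most like BST2 were ASPHD1, MIR7-3HG, ABHD3, SYNC and ATOSB. Their root mean square difference from BST2, each gene centred on its own mean, was 0.038 to 0.044 on the log2 scale. For the mean of the 10 members the nearest were AXIN2, LDB1, ZIK1, OR1E1 and CIROZ, at 0.014 to 0.017. None of these 10 genes passed across all probe sets. Of the nearest measured genes on either side of BST2 on chromosome 19, PLVAP, an endothelial membrane protein gene 2 genes away, was at 0.037 (SE 0.082), and the adjacent gene was at 0.015 (SE 0.086) for MVB12A, a subunit of the ESCRT-I sorting complex. HERC3, 3 genes beyond HERC5, was at 0.26 (SE 0.14).

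The other genes of the pathway were counted in 11 lists with 112 measured genes, of which 0 passed in limma across all probe sets, with or without the block, and 13 were higher and 1 lower at an unadjusted p under 0.05, where 2.65% of all tested probe sets were higher and 2.92% lower. With the block, 19 were higher and 1 lower at that level, against 5.31% and 6.19% of all tested probe sets. Of the 13 interferon ligands, 0 were among them without the block and 1 with it, IFNW1. IFNW1 (0.15) and IFNL1 (0.13) had the smallest p on the higher side and IFNA13 (-0.23) and IFNE (-0.058) on the lower. Of the 13, 10 never exceeded the negative control median. The share of all tested probe sets that never did was not computed, here or for the lists below. Of 10 genes from receptor to ISGF3, 1 was higher at that level, the ISGF3 subunit IRF9 (0.60, SE 0.11; adjusted p = 0.386), followed by IL10RB (0.13), with TYK2 (-0.081) and IFNGR1 (-0.075) on the lower side. Of 7 interferon regulatory factors IRF8 was higher at that level (0.25; adjusted p = 0.853), and with the block IRF1 (0.17) was as well, with IRF5 at -0.081 and IRF2 at -0.034. Of 8 negative regulators USP18, which removes ISG15 and blocks the receptor, was lower at that level (-0.21; adjusted p = 0.853), with PTPN2 at -0.13, PTPN6 at 0.14 and SOCS3 at 0.050.

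Among 5 measured partners of the OAS enzymes, EIF2AK2, the kinase PKR that also senses double-stranded RNA, was higher at an unadjusted p under 0.05 (0.24, SE 0.069; adjusted p = 0.743). ADAR was at 0.032, ABCE1, an inhibitor of RNase L, at -0.12 and DHX36 at -0.030. In the 6 genes of ISG15 conjugation, whose ligase is HERC5, the activating enzyme UBA7 was at 0.25 and TRIM25 at 0.12, while ARIH1 was at -0.051 and USP18 as given above. The 5 measured other genes of the HERC list had a median of -0.047, with HERC3 highest, which with the block was higher at an unadjusted p under 0.05 (block adjusted p = 0.274), and HERC4 (-0.12) and HERC1 (-0.099) lowest by p. Of 9 relatives of the MX proteins in the dynamin superfamily, ATL1 was higher at that level (0.26; adjusted p = 0.639), with MFN1 at 0.11, OPA1 at -0.092 and DNM1L at -0.057. The 4 measured partners of RSAD2 and BST2 were RTN3 (0.14), ARHGAP44 (0.023), CMPK2 and NT5C3A (-0.15).

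Of the 14 IFIT and IFI genes, which are induced by the same signal, 8 were higher at an unadjusted p under 0.05 and 0 lower, with a median of 0.32, against 2.65% and 2.92% of all tested probe sets. The count was 8 with the block too, and 5 of the 14 were dimmer than the negative control median in all arrays. The antiviral membrane protein IFITM1 was at 0.63 (SE 0.10; adjusted p = 0.338) and IFI44L at 0.90 (SE 0.18; adjusted p = 0.498), and IFIT5 was the exception below 0, at -0.10. Of 32 other interferon-stimulated genes 1 was higher at that level, the RNA sensor gene IFIH1 (0.24; adjusted p = 0.880), and 4 were with the block, with a median of 0.045. In all arrays 14 of the 32, IFIH1 among them, were dimmer than the negative control median. The largest difference of the list was 0.43, in a gene that did not reach an unadjusted limma p under 0.05 without the block. TRIM5 was at 0.15, PSMB8 at -0.17 and the chemokine gene CXCL11 at -0.14.

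**Figure D4:**
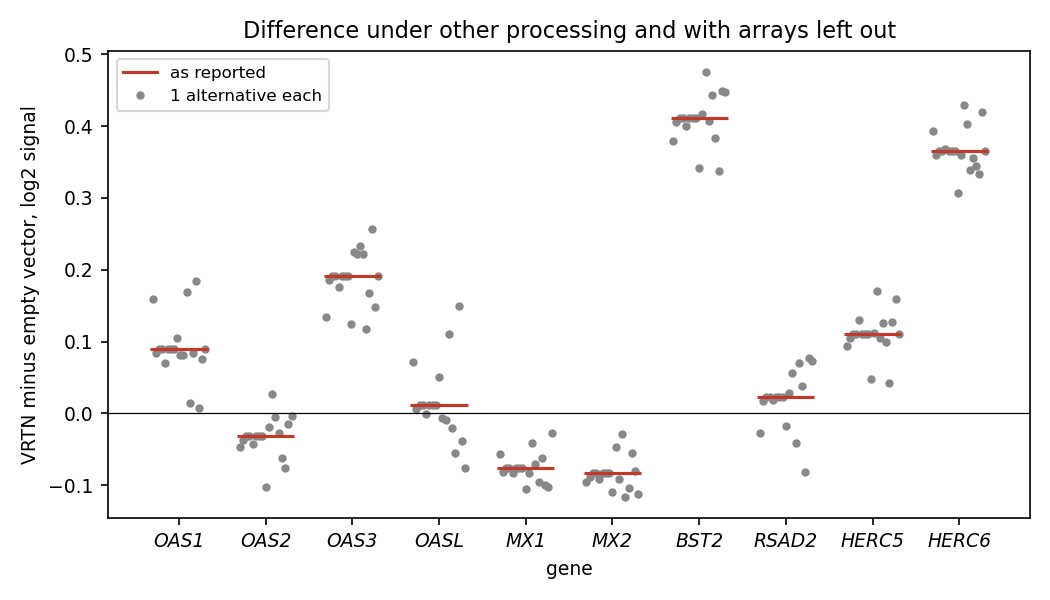
Difference between VRTN and empty vector arrays for each member on the log2 scale; the red bar is the value as reported and each grey point the value under 1 alternative (another normalization, filter, prior, weighting or block, or arrays left out). BST2 stayed between 0.34 and 0.48 and HERC6 between 0.31 and 0.43, while the points of OAS2, OASL and RSAD2 lie on both sides of 0.

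The differences of BST2 and HERC6 did not rest on 1 array. Without any single array BST2 was at 0.34 to 0.48 and HERC6 at 0.31 to 0.43, with unadjusted limma p up to 0.00664 and 0.0124, and neither passed the adjusted test in any of these fits. OAS3 was at 0.12 to 0.23 without single arrays (lowest without empty vector replicate 3 or VRTN replicate 1), and OAS1 at 0.015 (without empty vector replicate 2) to 0.17 (without empty vector replicate 1).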

How the data were processed

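Total RNA from 6 cultures, which the labels call biological replicates, was labelled and hybridised to 1 array each. Per the file headers, the values the authors deposited are log2 signals summarised per gene-level probe set with default RMA. The submitters' processing notes name Affymetrix Expression Console 1.0, while no genome build is given in the sources used here. Because RMA equalises the arrays' distributions, a change common to most transcripts is removed. A second deposited table held the same log2 values (0 of 33297 probe sets differed).

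The 4114 control probe sets were left out, and genes were named from probe sets with 1 symbol in the platform annotation, with current symbols from RefSeq (GRCh38.p14, used for names, neighbours and start windows). The plasmid comparison used limma 3.58.1 (R 4.3.3; lmFit and eBayes, two-sided). Its p-values were adjusted by Benjamini-Hochberg over all 29183 probe sets, dim ones included, and 0.05 was the threshold. The second fit added the replicate number, since deviations of same-numbered arrays from their group means correlated across probe sets at 0.535, 0.157 and 0.499, which was taken to pair them. Tables were read with Python 3.11.15 and pandas 2.3.3, and matplotlib 3.10.9 drew the plots. The fits were also run on simulated arrays with independent errors and with differences larger than those of the members. That run did not cover paired deviations or differences as small as the members had. Precision is limited by having 3 arrays per plasmid.

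The members and lists were chosen with earlier results of these data known. All members are named, and from each list up to 2 genes in each direction by smallest p. Neighbouring genes and the contrasts between neighbouring members were added after the values were seen.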

Additional observations from a re-analysis of the deposited data

How the results depend on the processing

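The count of members past an adjusted p of 0.05 was 0 in every alternative, for the plasmids and for the replicate numbers. BST2 and HERC6 kept an unadjusted p under 0.05 in each alternative that tested them. Some alternatives could not move the members' log2 differences. The second deposited table held the same values, and averaging probe sets left members with 1 probe set each as they were. Removing the dimmest 40 percent of probe sets left 4 members (OAS1, OAS3, HERC5 and HERC6), of which 1 was higher at an unadjusted p under 0.05, with a median log2 difference of 0.15. The median over the members was 0.042 to 0.11 without single arrays (highest without empty vector replicate 1), and the count at an unadjusted p under 0.05 stayed at 2. With the replicate block it was 3, and the block changed no call at the adjusted threshold of a member. OASL turned negative after a repeated quantile normalization (-0.00068, against 0.012). RSAD2 turned with array weights (-0.028), and DHX36 after a repeated quantile normalization (0.0014). Without single arrays the range was -0.056 to 0.11 for OASL, -0.041 to 0.070 for RSAD2, -0.10 to 0.027 for OAS2, -0.037 to 0.095 for ARHGAP44, -0.020 to 0.097 for SOCS3, -0.15 to 0.065 for IRF2, -0.14 to 0.00040 for ARIH1, -0.071 to 0.026 for DHX36, -0.24 to 0.014 for HERC4 and -0.22 to 0.0025 for IFIT5. Without a replicate number in both groups RSAD2 was -0.082 (number 1), OASL -0.039 (2) and -0.076 (3), IRF2 0.046 (1), DHX36 0.021 (1), ARHGAP44 -0.030 (1) and IFNE 0.012 (2). The cause of these turns was not tested. BST2, RSAD2, OAS2 and the MX genes were dimmer than the negative control median in all arrays. Of these, BST2, MX1 and MX2 turned in 0 alternatives, while OASL, which exceeded that median in 1 array, turned in 7. The part of dimness in the turns was not tested, and the share of all tested probe sets as dim was not computed.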
